A study of Mus musculus with 11 samples.

Results

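The insulin-like growth factor (IGF) axis was followed in RNA-seq libraries of cultured fetal lung mesenchymal cells from Sp3 mutant mice. It was taken as 10 genes, namely the ligands Igf1 and Igf2, the receptors Igf1r and Igf2r, and the binding proteins Igfbp2, Igfbp3, Igfbp4, Igfbp5, Igfbp6 and Igfbp7. They were found by symbol among the 24062 genes listed in every count file, and all 10 passed the filter on low counts. The lungs came from embryonic day (E) 15 embryos of timed matings between Sp3+/- mice, and mesenchymal cells were collected by collagenase digestion and quick adhesion to plastic and were passaged 2 times before lysis. There were 4 wild-type libraries (WT, genotype Sp3+/+), 4 Sp3+/- libraries and 3 Sp3-/- libraries, all from cells with no named treatment. The mutation is carried in the germline, so a difference between genotypes can arise before or during culture. Whether 2 libraries of a genotype came from separate embryos or litters is not given, so the p-values measure the spread between these libraries.

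IGF1 and IGF2 are secreted growth factors that act through the receptor tyrosine kinase IGF1R, which signals through PI3K-AKT and MAPK and supports growth of the embryo and of the lung. IGF2R, also called the cation-independent mannose 6-phosphate receptor, takes IGF2 up for degradation and carries lysosomal enzymes. The IGFBP proteins bind the ligands outside the cell and can hold them back or deliver them, and IGFBP7 binds them only weakly. Sp3 is a zinc finger transcription factor that binds GC-rich boxes in many promoters.

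Libraries held 14113788 to 35351093 reads on genes in WT, 13842791 to 59297495 in Sp3+/- and 9849111 to 45630738 in Sp3-/- cells. The targeted gene, Sp3, lay at 5.94 to 6.75 log2 CPM in WT, 5.71 to 6.15 in Sp3+/- and 3.89 to 4.23 in Sp3-/- libraries, so all Sp3-/- libraries were below all others, while WT and Sp3+/- overlapped and Sp3 levels cannot check those labels library by library. CPM is a gene's count scaled to a common library total, and levels here are log2 CPM after trimmed mean of M-values (TMM) scaling over the 11 libraries. Library titles carry a leading number (468, 685 or 697) and in 6 libraries a trailing number (2 or 3), neither of them explained in the labels. The 3 Sp3-/- libraries have no trailing number, nor do 1 WT library (468-4) and 1 Sp3+/- library (697-4), so this suffix and the genotype are nearly confounded. The 2 Sp3-carrying libraries without a suffix stood apart. Their 9 macrophage markers summed to 3176 CPM (WT 468-4) and 2980 CPM (Sp3+/- 697-4), against 359.1 to 859.8 CPM in the 6 libraries with a suffix and 3011 to 11050 CPM in Sp3-/- cells. Of those 9 markers, 4 were called higher in Sp3-/- than in WT cells and none was at 0 in all libraries. The 9 mesenchyme markers summed to 13100 to 22150 CPM in WT, 14960 to 22080 CPM in Sp3+/- and 7256 to 18900 CPM in Sp3-/- libraries. Of these 9 markers, 4 were called lower in Sp3-/- than in WT cells. In Sp3-/- 697-5 the macrophage sum (10420 CPM) exceeded the mesenchyme sum (7256 CPM). The 6 mesothelial markers summed to 696.4 to 1665 CPM in WT, 1353 to 2390 CPM in Sp3+/- and 2079 to 5614 CPM in Sp3-/- libraries. In bulk RNA, fewer cells of a type and less RNA per cell cannot be told apart.

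Between Sp3-/- and WT cells, 2 of the 6 binding protein genes and 1 of the 2 receptor genes changed. Igfbp6 rose 2.75-fold, Igfbp7 fell to 0.483 and Igf2r to 0.553 of the WT level, and the ligands did not pass the test. That is 3 of 10 genes called at an adjusted p below 0.05 (1 higher and 2 lower), where 18.5% of the 14025 genes tested were called, 8.76% higher and 9.77% lower. A count of 3 in 10 is near that background and says nothing particular about the axis as a whole. The libraries of Sp3-/- and WT did not overlap for 4 of the 10 genes, against 31.6% of all genes tested. The median log2 fold change was -0.53 over the 10 genes and -0.003 over all genes tested.

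**Figure D1:**
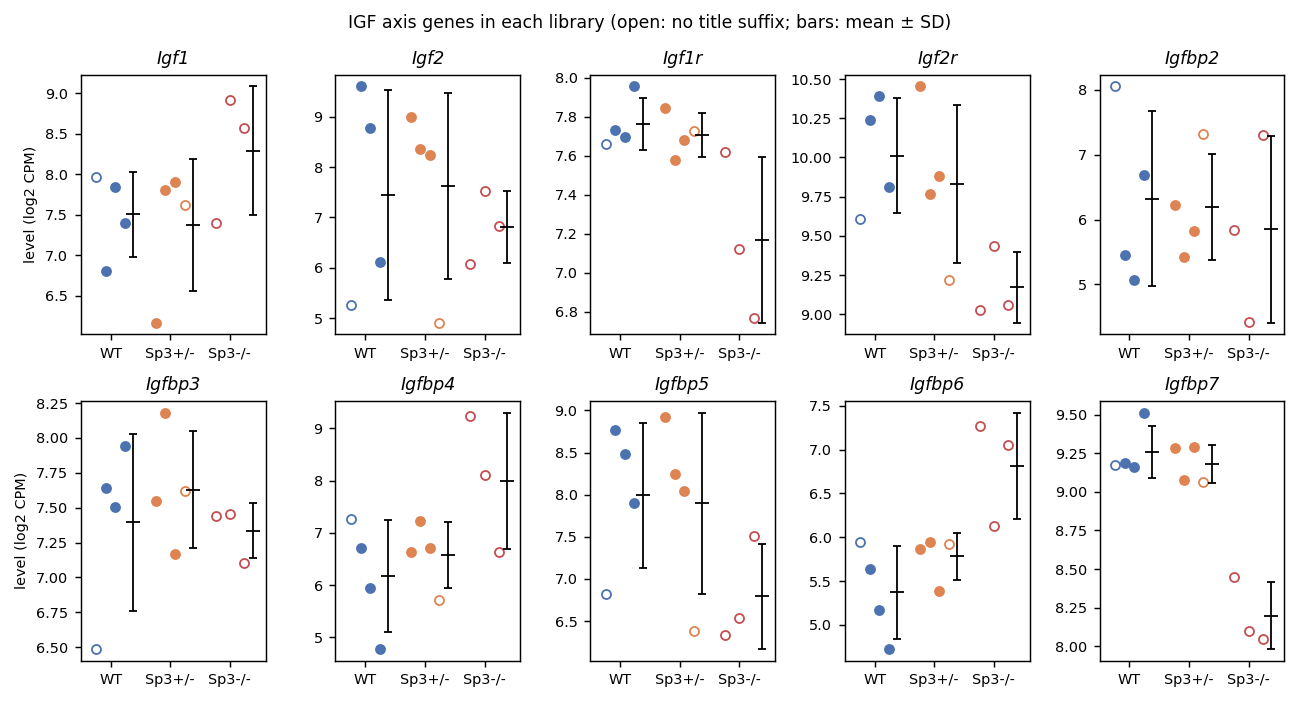
Level of each IGF axis gene (y axis, log2 CPM, its own scale in each panel) in every library of the 3 genotypes, with open points for libraries without a title suffix and black bars for the mean ± SD of a genotype. The 3 Sp3-/- libraries lay below all other libraries for Igfbp7 (8.05 to 8.45 against 9.07 to 9.51) and above them for Igfbp6 (6.13 to 7.26 against 4.72 to 5.95), while Igf2 spread widely within WT and Sp3+/- cells.

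Of the 2 ligands, Igf2 had the widest range of the 10 genes over the 11 libraries, 25.9-fold. Igf1 had a 6.70-fold range, narrower than those of Igfbp4 (22.0-fold) and Igfbp2 (12.5-fold). Igf1 (chromosome 10, 87858265 to 87937047, plus strand, GRCm38) encodes the ligand that mediates much of the growth hormone response after birth and also acts locally. It lay at 7.97 (468-4), 6.81 (685-2), 7.84 (697-1) and 7.40 (697-3) log2 CPM in WT libraries. In Sp3+/- libraries it lay at 6.17 (468-3), 7.81 (685-5), 7.91 (685-7) and 7.63 (697-4), and in Sp3-/- libraries at 7.40 (685-1), 8.91 (697-2) and 8.57 (697-5). Sp3-/- 697-2 and 697-5 were above all others, while 685-1 lay within the WT range. The log2 fold change of Sp3-/- against WT was 0.86 (SE 0.40, adjusted p = 0.158) and did not pass the test. With the leading title number as a block it was 0.94 (adjusted p = 0.0181). Igf1 was higher in Sp3-/- cells in every pair of libraries of 1 number. The WT libraries numbered 685 and 697 all carry a suffix and the Sp3-/- libraries none, so these values do not separate genotype from suffix. With the suffix as a covariate the log2 fold change was 0.705 (adjusted p = 0.342). Macrophages also make IGF1, and the macrophage marker sum was 3011 CPM in Sp3-/- 685-1, 11050 CPM in 697-2 and 10420 CPM in 697-5. Among the libraries that carry Sp3 the order was mixed. Igf1 was highest in WT 468-4, with a sum of 3176 CPM. Sp3+/- 685-7 (sum 638.3 CPM) and WT 697-1 (591.9 CPM) came next, above Sp3+/- 697-4 (2980 CPM). The part of macrophages in the Igf1 level was not tested.

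Igf2 (chromosome 7, 142650768 to 142666816, minus strand) encodes the main fetal ligand and is imprinted together with its neighbour H19, a long non-coding RNA whose gene lies 72621 bases away. Igf2 lay at 5.26 (468-4), 9.61 (685-2), 8.79 (697-1) and 6.12 (697-3) log2 CPM in WT libraries. In Sp3+/- libraries it lay at 8.99 (468-3), 8.37 (685-5), 8.24 (685-7) and 4.91 (697-4), and in Sp3-/- libraries at 6.08 (685-1), 7.53 (697-2) and 6.82 (697-5). The level thus ran over a 25.9-fold range across the 11 libraries. Its SD within WT cells, 2.08 on the log2 scale, was at the 99.8th percentile of the SDs of all genes tested, and its SD of 1.84 within Sp3+/- cells at the 99.7th. The Sp3-/- libraries lay between the high and the low libraries of the other genotypes, with 685-1 level with WT 697-3.

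The fitted log2 fold change of Igf2 was -1.43 (SE 1.01, adjusted p = 0.337) for Sp3-/- against WT and -1.26 (SE 1.05, adjusted p = 0.397) for Sp3-/- against Sp3+/-, and neither passed the test. The fit works on counts, in which the high libraries weigh more, and the mean log2 CPM was 6.81 ± 0.72 (SD, n = 3) in Sp3-/- and 7.44 ± 2.08 (SD, n = 4) in WT cells. Without WT 685-2, the highest library, the value against WT moved to -0.59. The direction turned with the suffix. Among the 5 libraries without one, Igf2 lay at 5.26 in WT and 4.91 in Sp3+/- cells and at 6.08 to 7.53 in Sp3-/- cells, and the log2 fold change against WT in these libraries alone was 1.66 (adjusted p = 0.516). With the suffix as a covariate in all 11 libraries it was 1.64 (adjusted p = 0.252). The genotype and the suffix cannot be told apart in this gene.

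H19 moved with Igf2 from library to library in WT and Sp3+/- cells. H19 lay at 4.61 (468-4), 9.22 (685-2), 8.43 (697-1) and 5.48 (697-3) log2 CPM in WT, at 8.74 (468-3), 8.33 (685-5), 7.65 (685-7) and 4.34 (697-4) in Sp3+/- and at 4.65 (685-1), 5.35 (697-2) and 2.13 (697-5) in Sp3-/- libraries. Per kb of exon, the ratio of H19 to Igf2 was 1.38 to 1.69 in WT and 1.44 to 2.11 in Sp3+/- libraries, so it was nearly constant while Igf2 itself varied. In Sp3-/- libraries the ratio was 0.800 (685-1), 0.478 (697-2) and 0.0823 (697-5), below all others, and the last of these rests on 42 H19 reads. This ratio was looked at after the values were seen and was given no test. H19 itself had a log2 fold change of -3.39 (SE 1.28, adjusted p = 0.0997) against WT. Igf2 overlaps the antisense gene Igf2os, which had 0 to 63 reads a library.

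**Figure D2:**
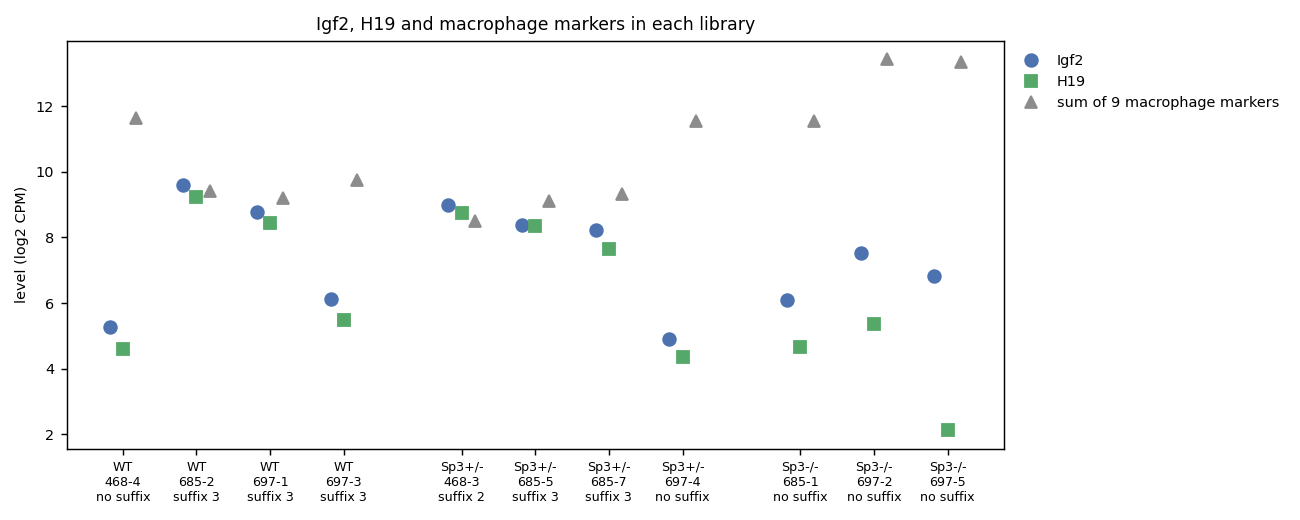
Levels of Igf2, H19 and the sum of 9 macrophage markers (y axis, log2 CPM) in each of the 11 libraries, ordered by genotype with the title suffix under each name, for comparison between libraries and not between genes. Igf2 and H19 were low together in WT 468-4, WT 697-3 and Sp3+/- 697-4, and H19 lay further below Igf2 in the 3 Sp3-/- libraries. The marker sum was raised in all 5 libraries without a suffix, while WT 697-3 had low Igf2 with a sum of 859.8 CPM.

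Igf2 supplied 20.2% to 92.0% of the summed ligand transcripts per kb in WT, 20.1% to 92.2% in Sp3+/- and 33.1% to 40.0% in Sp3-/- libraries. The 2 ligands together came to 72.5 ± 53.0 CPM per kb in WT (SD, n = 4), 65.5 ± 28.5 in Sp3+/- (SD, n = 4) and 53.3 ± 24.8 in Sp3-/- cells (SD, n = 3). The ligand pool therefore differed by less than its spread within a genotype.

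Of the receptors, Igf2r was lower in Sp3-/- than in WT cells, and Igf1r did not pass the test. Igf2r (chromosome 17, 12682406 to 12769706, minus strand) lay at 9.61 (468-4), 10.24 (685-2), 10.39 (697-1) and 9.81 (697-3) log2 CPM in WT libraries. In Sp3+/- libraries it lay at 10.45 (468-3), 9.77 (685-5), 9.88 (685-7) and 9.22 (697-4), and in Sp3-/- libraries at 9.02 (685-1), 9.43 (697-2) and 9.06 (697-5). All Sp3-/- libraries were below all WT libraries, and Sp3+/- 697-4 lay among the Sp3-/- values. Igf2r fell by 0.86 on the log2 scale against WT (SE 0.23, adjusted p = 0.0404). Against Sp3+/- its log2 fold change was -0.71 (SE 0.28, adjusted p = 0.0838), and Sp3+/- against WT gave -0.15 (SE 0.25, adjusted p = 1).

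The Igf2r call rested on most libraries being present. Of the 7 fits that left out 1 library, only the fit without WT 468-4 kept the call (log2 fold change -0.98, adjusted p = 0.0144). The others ran from -0.72 to -1.005 with adjusted p up to 0.104. WT 468-4 is the only WT library without a suffix, so the fit without it does not separate genotype from suffix. With the suffix as a covariate the log2 fold change was -0.41 (adjusted p = 0.215). Within libraries numbered 685 the difference in mean log2 CPM was -1.21, with 1 library a side. Within those numbered 697 it was -0.86, with 2 a side. The WT libraries of both numbers carry a suffix and the Sp3-/- libraries do not. No Sp3-/- library is numbered 468. The imprinted antisense RNA Airn overlaps Igf2r and had 11 to 155 reads a library, a small number beside the 5210 to 51641 reads of Igf2r.

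Igf1r (chromosome 7, 67952257 to 68233668, plus strand), the signalling receptor, was among the steadiest genes of the axis, with a 2.28-fold range over all libraries. It lay at 7.66 (468-4), 7.73 (685-2), 7.70 (697-1) and 7.96 (697-3) log2 CPM in WT, at 7.85 (468-3), 7.57 (685-5), 7.68 (685-7) and 7.73 (697-4) in Sp3+/- and at 7.62 (685-1), 7.12 (697-2) and 6.77 (697-5) in Sp3-/- libraries. The Sp3-/- libraries did not overlap with WT, although 685-1 came close. They did overlap with Sp3+/-, because 685-1 (7.62) lay above Sp3+/- 685-5 (7.57). The log2 fold change against WT was -0.55 (SE 0.19, adjusted p = 0.0814) and against Sp3+/- -0.50 (SE 0.17, adjusted p = 0.0546), and neither passed. Without Sp3-/- 685-1 the value against WT was -0.81 (adjusted p = 0.0238). Per kb of exon, Igf2r transcripts exceeded those of Igf1r 7.63-fold to 13.7-fold in WT, 5.94-fold to 12.9-fold in Sp3+/- and 5.60-fold to 10.5-fold in Sp3-/- libraries, ranges that overlapped.

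Igfbp7 gave the clearest change of the axis. It encodes a secreted, weakly IGF-binding protein of the extracellular matrix and of vessels (chromosome 5, 77349240 to 77408045, minus strand). Igfbp7 lay at 9.17 (468-4), 9.18 (685-2), 9.16 (697-1) and 9.51 (697-3) log2 CPM in WT libraries. In Sp3+/- libraries it lay at 9.28 (468-3), 9.08 (685-5), 9.29 (685-7) and 9.07 (697-4), and in Sp3-/- libraries at 8.45 (685-1), 8.10 (697-2) and 8.05 (697-5). The 8 libraries that carry Sp3 were close to each other, those without a suffix included, and all 3 Sp3-/- libraries were below them. Igfbp7 fell by 1.05 on the log2 scale against WT (SE 0.15, adjusted p = 0.00981) and by 0.97 against Sp3+/- (SE 0.13, adjusted p = 0.002).

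The Igfbp7 change kept its size when libraries and covariates were changed. With the suffix as a covariate the log2 fold change was -0.96 against WT (adjusted p = 0.0144) and -0.86 against Sp3+/- (adjusted p = 0.0284). Among the libraries without a suffix, 8.05 to 8.45 in Sp3-/- compared with 9.17 in the WT and 9.07 in the Sp3+/- library, and the log2 fold change against WT was -0.97 (adjusted p = 0.382, in a fit that called no gene at all). Without WT 468-4 it was -1.08 (adjusted p = 0.00557), and without Sp3-/- 697-2 it was -1.002 (adjusted p = 0.0513), the 1 of 7 such fits in which the call was lost. Against Sp3+/-, the gene was called in all 11 fits that left out 1 library. The difference in mean log2 CPM was -0.74 within libraries numbered 685 and -1.26 within those numbered 697. Igfbp7 overlaps Polr2b by 89 bases, a small part of its 5449 bases of exon.

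Igfbp6 moved the opposite way. It encodes a binding protein that prefers IGF2 (chromosome 15, 102144186 to 102149512, plus strand). Igfbp6 lay at 5.94 (468-4), 5.64 (685-2), 5.17 (697-1) and 4.72 (697-3) log2 CPM in WT libraries. In Sp3+/- libraries it lay at 5.86 (468-3), 5.95 (685-5), 5.39 (685-7) and 5.92 (697-4), and in Sp3-/- libraries at 7.26 (685-1), 6.13 (697-2) and 7.06 (697-5). All Sp3-/- libraries were above all others, 697-2 by a small margin. The mesothelial marker Upk1b, picked from the 6 used here after its values were seen, moved with it. Upk1b lay at 9.10 (468-4), 8.34 (685-2), 7.48 (697-1) and 7.42 (697-3) log2 CPM in WT and 10.53 (685-1), 9.65 (697-2) and 9.78 (697-5) in Sp3-/- libraries. The 6 markers did not move alike. In Sp3-/- 697-5, Krt19 (2.68) lay within its WT range of 2.43 to 3.92, and Lrrn4 (6.92) within 6.05 to 7.44. Wt1, Msln, Upk3b and Upk1b lay above their WT ranges there. The sum of the 6 mesothelial markers was 696.4 to 1665 CPM in WT libraries. In Sp3-/- libraries it was 5614 (685-1), 2912 (697-2) and 2079 CPM (697-5), an order unlike that of Igfbp6, which was lowest in 697-2. The part of mesothelial cells in the Igfbp6 level was not tested. Igfbp6 rose by a log2 fold change of 1.46 against WT (SE 0.34, adjusted p = 0.0303) and of 1.10 against Sp3+/- (SE 0.31, adjusted p = 0.0282).

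The size of the Igfbp6 change was steadier than its call. Leaving out 1 library gave log2 fold changes of 1.22 to 1.73 against WT, with a highest adjusted p of 0.0838. Only the value without WT 468-4 (1.68, adjusted p = 0.0138) passed. Within libraries numbered 685 and 697 the differences in mean log2 CPM were 1.63 and 1.65. WT 468-4 is the only WT library without a suffix, so neither that fit nor these differences separate genotype from suffix. With the suffix as a covariate the log2 fold change was 1.11 (adjusted p = 0.108).

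The 250 bases before the start sites of the 3 called genes are shown because Sp3 binds GC boxes and the genes differed in carrying them. They are RefSeq sequences on GRCm38 (mm10), written 5′ to 3′ along the gene's strand, with the GC box core GGGCGG, or the same letters read from the other strand, in capitals. Igf2r is chr17:12769707-12769956, minus strand, Igfbp7 is chr5:77408046-77408295, minus strand, and Igfbp6 is chr15:102143936-102144185, plus strand.
Igf2r: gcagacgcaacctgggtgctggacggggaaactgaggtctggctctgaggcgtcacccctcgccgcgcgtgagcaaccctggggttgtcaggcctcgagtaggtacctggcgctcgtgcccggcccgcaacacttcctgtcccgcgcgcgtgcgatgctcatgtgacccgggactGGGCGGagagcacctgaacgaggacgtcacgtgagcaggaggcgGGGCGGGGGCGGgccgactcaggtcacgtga
Igfbp7: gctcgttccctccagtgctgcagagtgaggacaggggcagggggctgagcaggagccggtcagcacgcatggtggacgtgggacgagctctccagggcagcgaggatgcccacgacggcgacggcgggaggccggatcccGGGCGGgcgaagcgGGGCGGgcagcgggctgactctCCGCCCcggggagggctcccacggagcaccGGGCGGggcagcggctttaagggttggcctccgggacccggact
Igfbp6: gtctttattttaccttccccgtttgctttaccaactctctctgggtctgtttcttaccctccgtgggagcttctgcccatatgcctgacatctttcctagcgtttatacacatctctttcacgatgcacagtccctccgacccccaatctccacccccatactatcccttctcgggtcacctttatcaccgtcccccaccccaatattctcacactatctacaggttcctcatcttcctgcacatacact
The Igfbp7 sequence holds 4 cores, the first bases of which lie at -110, -96, -74 and -44 from the start site, and the Igf2r sequence holds 3, at -75, -31 and -25. The Igfbp6 sequence holds 0. Its GC content was 49.6%, against 74.0% for Igfbp7 and 69.2% for Igf2r. In windows from 250 bases before to 50 after the start, the core was present on either strand in 35.7% of 32851 mouse promoters, and the longer box GGGGCGGGG, which contains it, in 11.4%. Of the other genes, Igf1r had 2 cores, 1 of the Igfbp2 windows had 3, and 2 of the 4 Igf2 windows had 1 and 2. The single windows of Igf1, Igfbp3, Igfbp4 and Igfbp5 held 0. The longer box occurred 1 time each in the Igf2r window, 1 Igfbp2 window and 1 Igf2 window. The windows of Igfbp7, Igfbp6 and the other genes held 0 of it. These are letter matches and show nothing about binding.

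Per kb of exon, Igfbp4 was the most abundant of the 6 binding proteins in Sp3-/- 685-1 and the scarcest in Sp3-/- 697-5. It encodes a binding protein mostly known to hold IGFs back, and the protease PAPP-A cleaves it (chromosome 11, 99040005 to 99052655, plus strand). Igfbp4 lay at 7.27 (468-4), 6.72 (685-2), 5.94 (697-1) and 4.78 (697-3) log2 CPM in WT libraries. In Sp3+/- libraries it lay at 6.63 (468-3), 7.23 (685-5), 6.72 (685-7) and 5.72 (697-4), and in Sp3-/- libraries at 9.24 (685-1), 8.12 (697-2) and 6.63 (697-5). The first 2 Sp3-/- libraries were above all others and the last was within the WT range. The log2 fold change against WT was 1.91 (SE 0.70, adjusted p = 0.0902) and did not pass. With the leading title number as a block it was 2.24 (adjusted p = 0.0192). The differences in mean log2 CPM were 2.52 within libraries numbered 685 and 2.01 within those numbered 697. These WT libraries all carry a suffix and the Sp3-/- libraries none, so these values do not separate genotype from suffix. With the suffix as a covariate the log2 fold change against WT was 1.74 (adjusted p = 0.233). In the libraries without a suffix alone it was 1.08. Against Sp3+/- the log2 fold change was 1.68 (SE 0.64, adjusted p = 0.0748), and 2.14 (adjusted p = 0.0128) with the title number as a block. Without Sp3-/- 685-1 the value against WT was 1.12 (adjusted p = 0.281). The mesothelial marker sum followed the same order within Sp3-/- cells, at 5614 CPM in 685-1, 2912 CPM in 697-2 and 2079 CPM in 697-5. The part of mesothelial cells in the Igfbp4 level was not tested.

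Igfbp5 (chromosome 1, 72858065 to 72874865, minus strand) encodes a binding protein that also attaches to the matrix. It lay at 6.82 (468-4), 8.76 (685-2), 8.49 (697-1) and 7.90 (697-3) log2 CPM in WT, at 8.92 (468-3), 8.24 (685-5), 8.05 (685-7) and 6.38 (697-4) in Sp3+/- and at 6.34 (685-1), 6.54 (697-2) and 7.50 (697-5) in Sp3-/- libraries. The 5 libraries without a suffix were the lowest 5, whatever their genotype. The log2 fold change against WT was -1.27 (SE 0.49, adjusted p = 0.104). With the leading title number as a block it was -1.55 (adjusted p = 0.031), and every pair of libraries of 1 number was lower in Sp3-/- cells. Without WT 468-4, the only WT library lacking a suffix, it was -1.54 (adjusted p = 0.022). In these fits and pairs genotype and suffix cannot be separated. With the suffix as a covariate the log2 fold change was 0.11 (adjusted p = 0.869), so the direction turned with that term.

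Igfbp2 lies 5590 bases from Igfbp5 on chromosome 1 (72824480 to 72852474, plus strand), and the neighbours had different patterns. Igfbp2 lay at 8.06 (468-4), 5.45 (685-2), 5.07 (697-1) and 6.70 (697-3) log2 CPM in WT, at 6.22 (468-3), 5.42 (685-5), 5.82 (685-7) and 7.33 (697-4) in Sp3+/- and at 5.84 (685-1), 4.41 (697-2) and 7.30 (697-5) in Sp3-/- libraries. Its 3 highest libraries were 1 of each genotype, none with a suffix, and the range over all libraries was 12.5-fold. The log2 fold change against WT was -0.52 (SE 0.87, adjusted p = 0.700). Igfbp3 (chromosome 11, 7206086 to 7215498, minus strand), the main carrier of IGFs in blood, lay at 6.49 to 7.94 log2 CPM in WT, 7.17 to 8.18 in Sp3+/- and 7.11 to 7.46 in Sp3-/- libraries. Its genotypes overlapped fully, with a log2 fold change of -0.14 against WT (SE 0.31, adjusted p = 0.779).

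**Figure D3:**
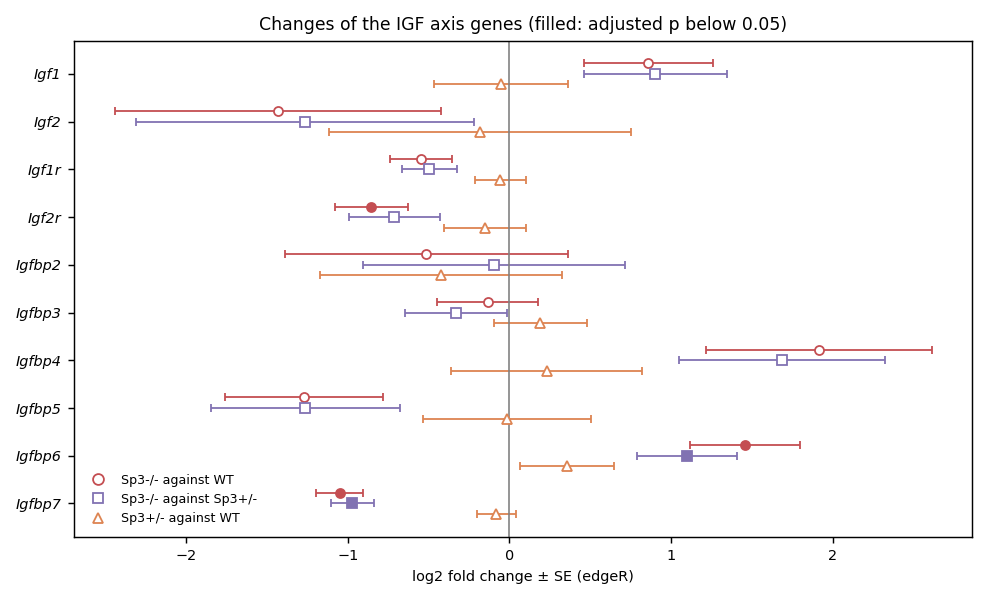
Log2 fold change of each IGF axis gene (x axis, edgeR estimate, bars ± SE) in the 3 comparisons between genotypes, with filled symbols for an adjusted p below 0.05. Igfbp7 (-1.05 and -0.97) and Igfbp6 (1.46 and 1.10) were called against both WT and Sp3+/-, Igf2r (-0.86) against WT, and no gene between Sp3+/- and WT.

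Compared per kb of merged exon, the order of the binding proteins turned over. That order depends on the lengths used, 5.449 kb for Igfbp7 and 1.380 kb for Igfbp6. Merged exons span every annotated exon, whether or not it is expressed here. By mean log2 CPM, with no division by length, Igfbp7 (8.20) stayed above Igfbp6 (6.82) in Sp3-/- cells. Igfbp7 was the highest of the 6 in WT, at 113 ± 14.1 CPM per kb (SD, n = 4), and in Sp3+/- cells, at 107 ± 9.12 (SD, n = 4), and Igf2r matched it in WT at 113 ± 28.1 (SD, n = 4). In Sp3-/- cells Igfbp7 came to 54.4 ± 8.45 CPM per kb (SD, n = 3). There Igfbp6 was the highest of the 10 genes at 86.2 ± 31.6 and Igfbp4 next at 73.9 ± 57.9, neighbours that did not differ beyond their spread. Igf1r had the lowest mean of the 10 genes in each genotype, at 10.2 to 12.6 in WT, 9.64 to 11.6 in Sp3+/- and 5.51 to 9.93 CPM per kb in Sp3-/- libraries.

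Per kb of merged exon, the sum of the 6 binding proteins had similar means across genotypes. It was 316 ± 35.0 CPM per kb in WT (SD, n = 4), 315 ± 29.9 in Sp3+/- (SD, n = 4) and 318 ± 81.6 in Sp3-/- cells (SD, n = 3). Single Sp3-/- libraries ran from 238.8 (697-2) to 401.8 (685-1). The sum and the shares in it depend on the exon lengths, as the order does. Within that sum, Igfbp7 made up 29.7% to 42.1% in WT, 30.0% to 41.0% in Sp3+/- and 15.6% to 21.1% in Sp3-/- libraries. Igfbp6 made up 6.01% to 12.5%, 10.8% to 14.6% and 21.2% to 30.9% in the same order, so neither share overlapped between Sp3-/- and the other genotypes. Igfbp4 made up 34.0% in Sp3-/- 685-1 and 26.3% in 697-2, but 7.18% in 697-5, against 1.95% to 10.3% in the 8 other libraries. Igfbp2 made up 35.8% in WT 468-4, 25.7% in Sp3+/- 697-4 and 24.3% in Sp3-/- 697-5, and 4.28% to 15.7% elsewhere.

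**Figure D4:**
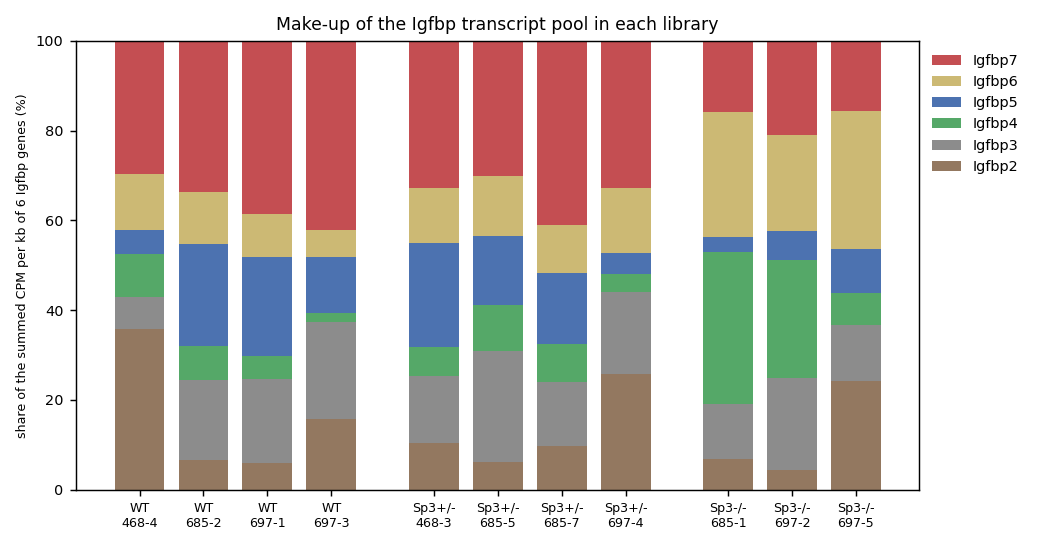
Share of each Igfbp gene in the summed CPM per kb of the 6 genes (y axis, percent) in each library, grouped by genotype. Igfbp7, at the top of each bar, took 29.7% to 42.1% in WT and 15.6% to 21.1% in Sp3-/- libraries, while Igfbp6 took 21.2% to 30.9% in Sp3-/- libraries.

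With 1 Sp3 allele lost, the axis did not change measurably. Between Sp3+/- and WT cells, none of the 10 genes was called by edgeR, none had an unadjusted p under 0.05 and none had genotypes that did not overlap. Of all 14130 genes tested, 0% were called, 246 had an unadjusted p under 0.05 and the libraries of 1.41% did not overlap. DESeq2 and limma-voom also called 0 genes. The log2 fold changes of the 10 genes ran from -0.42 (Igfbp2, SE 0.75) to 0.36 (Igfbp6, SE 0.29). Igfbp7 was the most tightly measured, at -0.08 (SE 0.12), whereas at the SE of 0.94 for Igf2 a 2-fold change was not detectable. Sp3 itself had a log2 fold change of -0.49 (SE 0.16, adjusted p = 1, unadjusted p = 0.0131).

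Between Sp3-/- and Sp3+/- cells, 2 of the 10 genes were called, Igfbp6 higher and Igfbp7 lower, where 25.5% of the 14130 genes tested were called, 13% higher and 12.5% lower. The libraries did not overlap for 2 of the 10, against 34.2% of all genes. This comparison shares the 3 Sp3-/- libraries with that against WT. Without the 2 Sp3-carrying libraries that lack a suffix, 4 genes were called, Igf2r (-0.89, adjusted p = 0.0167) and Igfbp5 (-1.58, adjusted p = 0.011) in addition. All Sp3-carrying libraries left in that fit carry a suffix, so it does not separate genotype from suffix.

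**Figure D5:**
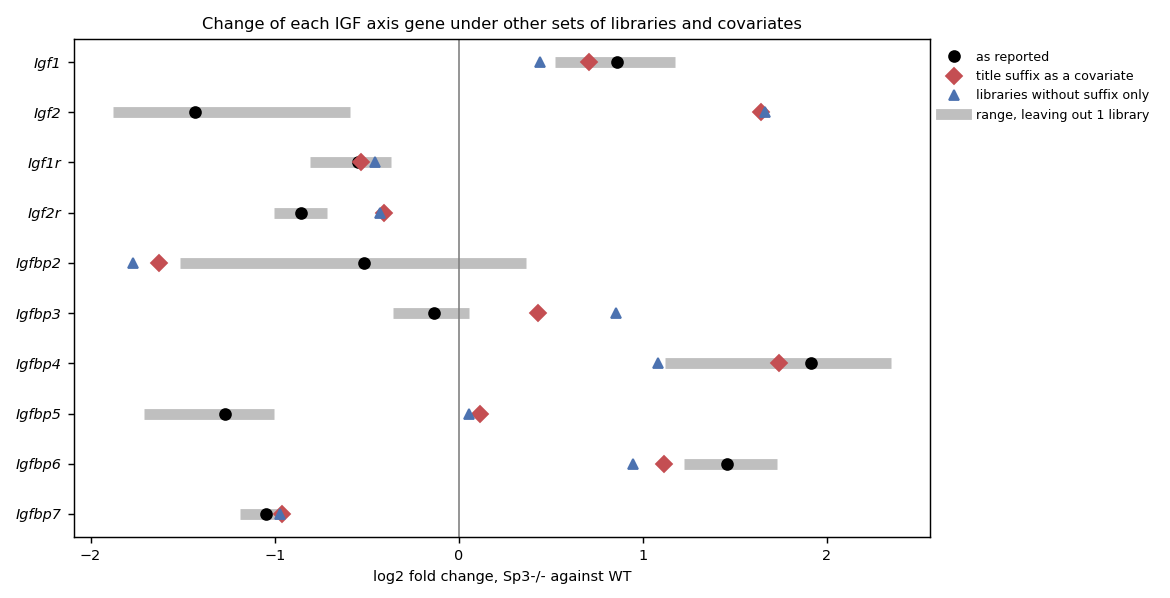
Log2 fold change of Sp3-/- against WT for each IGF axis gene (x axis) as reported (circles), with the title suffix as a covariate (diamonds), in the 5 libraries without a suffix (triangles) and over the fits that leave out 1 library (grey range). Igfbp7 stayed between -1.19 and -0.96 throughout, whereas Igf2 (-1.43 to 1.64) and Igfbp5 (-1.27 to 0.11) changed sign with the covariate.

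Other genes of the pathway were read from a list of 57, of which 50 were tested. Between Sp3-/- and WT cells 5 were called higher and 7 lower, where 8.76% of all genes tested were called higher and 9.77% lower, with a median log2 fold change of -0.31. Against Sp3+/- it was 5 higher and 8 lower, where 13% of all genes were called higher and 12.5% lower, and between Sp3+/- and WT none, as among all genes. The calls against WT depended on the libraries. With the suffix as a covariate 5 genes were called, Ghr, Igf2bp1, Eif4ebp1, Stat5b and Plat, and without Sp3-/- 697-2 only Hmga2 was. Among 10 proteases that cut IGFBPs and their inhibitors, 1 was higher and 2 were lower, which is near the 18.5% of all genes called. Stc1, an inhibitor of PAPP-A, fell by 2.48 on the log2 scale (SE 0.70, adjusted p = 0.0476). Its levels were low, at 0.015 to 1.08 log2 CPM in Sp3-/- libraries. Stc1 was also lower in the Sp3-carrying libraries without a suffix, at 1.47 in WT 468-4 and 0.89 in Sp3+/- 697-4, against 2.05 to 3.97 with one. Adamts1, a secreted metalloprotease of the matrix, fell by 1.15 (SE 0.30, adjusted p = 0.0376). Ctsd, the lysosomal protease cathepsin D and a cargo of the mannose 6-phosphate receptors, had a log2 fold change of 1.56 (SE 0.44, adjusted p = 0.0469). Ctsd was also high in the Sp3-carrying libraries without a suffix, at 12.67 log2 CPM in WT 468-4 and 12.42 in Sp3+/- 697-4 against 11.35 to 11.60 with a suffix, so it followed the macrophage marker sum there. The part of these cells in it was not tested.

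Among 11 neighbours and regulators of the ligands, 1 was higher and 4 were lower, beside 8.76% higher and 9.77% lower over all genes tested. Hmga2, a chromatin protein of fetal cells, fell by 1.23 on the log2 scale (SE 0.25, adjusted p = 0.022). Igf2bp1, which binds Igf2 and other mRNAs, fell by 1.14 (SE 0.22, adjusted p = 0.0184). Ghr, the growth hormone receptor, fell by 0.95 (SE 0.14, adjusted p = 0.0112). All 3 were lower in every Sp3-/- than in every WT library. They were picked among the called genes, and 31.6% of all genes tested had no overlap between these genotypes, in either direction.

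Of 18 downstream kinases and factors of the receptor, 2 were higher and 1 was lower than in WT cells, a share near the 18.5% of all genes, with a median log2 fold change of 0.02. Pik3cb, a catalytic subunit of PI3K, rose by 0.70 on the log2 scale (SE 0.13, adjusted p = 0.0171). Pdpk1, the kinase that activates AKT, rose by 0.26 (SE 0.07, adjusted p = 0.0469). Eif4ebp1, a brake on translation that mTOR releases, fell by 0.51 (SE 0.12, adjusted p = 0.0264). Of 8 adaptors and inhibitors at the receptor that were tested, 1 was called, the phosphatase gene Ptpn1 (log2 fold change 0.83, SE 0.22, adjusted p = 0.0415). Ptpn1 was also higher in WT 468-4 (6.22 log2 CPM) and Sp3+/- 697-4 (6.02) than in the libraries with a suffix (5.54 to 5.71). The insulin receptor Insr, the 1 gene tested of its group, had a log2 fold change of -0.12 (SE 0.12, adjusted p = 0.520), and 0 of 2 other binding protein genes were called.

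The genes with patterns most like each IGF axis gene were found by Pearson r of log2 CPM over the 11 libraries, among 11203 genes with a mean above 2. The libraries share genotype, suffix and cell make-up, so r describes likeness here and has no test. Igfbp7 was most like Utrn (r = 0.987), Fam162a (0.984) and Fads3 (0.979). Igf2r was most like Tmem158 (0.980), D430019H16Rik (0.975) and Trio (0.969), and Igf1r like Fat1 (0.971), Decr1 (0.969) and Hemk1 (0.966). Igfbp6 was most like Rab6b (0.970), S100a16 (0.968) and Esam (0.963). Igfbp4 was most like Tspan8 (0.980), Lrrn4 (0.969) and Mpzl2 (0.969), of which Lrrn4 is among the mesothelial markers used here. Igfbp5 was most like Tenc1 (0.973), Pxylp1 (0.970) and Slc35e3 (0.955). Igf2 was most like Fzd1 (0.954), Clmp (0.931) and Cmya5 (0.923), and Igf1 like Slc31a1 (0.952), Pak2 (0.932) and Tmem68 (0.931). Igfbp2 was most like Tbcel (0.959), Dad1 (0.949) and Mrpl53 (0.945). Igfbp3 had no close match, its best being Rbm14 (0.843), Fras1 (0.840) and Gtf3c1 (0.824).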

How the data were processed

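RNA-seq of 11 libraries was analysed. Per the labels and the methods, RNA with RIN scores above 7 was made into TruSeq libraries and sequenced as 50 bp single end reads, which the authors checked with FastQC 0.10.1, aligned to mm10 with STAR 2.4.5a and counted per gene with htseq-count. The gene annotation and the strand setting are not given in the sources used here. The authors deposited whole-number counts for each gene symbol, with tallies of reads assigned to no gene (38.4% to 40.9% of the reads tallied in a library), which entered neither library sizes nor tests.

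Groups were taken from the genotype labels. Each fit kept genes whose CPM passed 1 in at least 1 of its libraries and used edgeR 4.0.16 (TMM, estimateDisp, robust glmQLFit, glmQLFTest) in R 4.3.3, with Benjamini-Hochberg adjustment over all genes tested and calls at an adjusted p below 0.05. Sp3-/- against WT used those 7 libraries, and the other comparisons used all 11. The study's own fit was limma-voom with a consensus correlation, used here as an alternative (limma 3.58.1), as was DESeq2 1.42.0. Standard errors are those implied by the F statistic. Levels are log2 CPM with a prior count of 2. Levels between genes are CPM per kb of merged exons (GENCODE M39, lengths only). Merged exons can be longer than the transcript expressed, so orders, sums, shares and ratios between genes depend on these lengths. Promoters and gene positions are RefSeq on GRCm38.p6, the build of the files. All 10 genes matched by symbol. Counting without a known strand setting means that reads of overlapping antisense genes may be shared.

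The 10 genes, the pathway and marker lists and the tests were chosen with earlier results of these data known. Of the other pathway genes, those called with the largest changes are named, at most 3 for each of their groups. Lists for endothelial cells (1 of 6 called higher in Sp3-/- than in WT), epithelial cells (3 of 6 higher), erythroid cells (1 tested and higher, 4 globin genes without a read in any library), mesothelium (3 of 6 higher), macrophages (4 of 9 higher), mesenchyme (4 of 9 lower) and proliferation (1 of 9 lower) served to describe the cells. Libraries of a genotype differed beyond counting noise (lowest chi-square per degree of freedom 16.6). Replicate numbers follow accession order and pair nothing. The fits were tested on simulated counts with the same dispersion for every gene and no effect of suffix or title number. Those settings differ from these data, so that test does not bear on the suffix. Alternatives were other scalings and filters, other tests, the first title number as a block, the suffix as a covariate, and leaving out libraries. In 1 Sp3+/- library (697-4) the count file carries a suffix of 2 that its title lacks, and it was treated as having none.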

Additional observations from a re-analysis of the deposited data

Results flagged for a closer look

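In 3 of the 22 sets of libraries examined (the 10 genes and Sp3 within WT and within Sp3+/-), 1 library lay far from the other 3 by Dixon's criterion. Chance flags about 1 set in 20. Igf1 in Sp3+/- 468-3 was low, at 6.17 log2 CPM, where the other Sp3+/- libraries lay at 7.63 to 7.91. The macrophage marker sum of that library, 359.1 CPM, was the lowest of the 11. Igfbp6 in Sp3+/- 685-7 was low, at 5.39, where the others lay at 5.86 to 5.95. Igfbp7 in WT 697-3 was high, at 9.51, where the others lay at 9.16 to 9.18. Leaving that library out gave a log2 fold change of -0.96 for Igfbp7 between Sp3-/- and WT cells (adjusted p = 0.0249). The cause of these 3 values was not tested.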

How the results depend on the processing

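Against WT, 3 of the 10 genes were called in Sp3-/- cells, 6 with DESeq2, 5 with all 11 libraries in 1 fit, 6 with the first title number as a block, 1 with the suffix as a covariate and 0 in the 5 libraries without a suffix, where no gene of the whole table was called. Leaving out 1 library gave 0 (without Sp3-/- 697-2) to 4 calls (without WT 468-4). The other pathway genes called were 12, with 19 under DESeq2, 5 with the suffix as a covariate, 0 in libraries without a suffix and 1 to 17 without 1 library. Against Sp3+/-, 2 genes were called, 5 with DESeq2, 1 with the suffix as a covariate, 0 in libraries without a suffix, 4 without the Sp3-carrying libraries that lack a suffix (an alternative chosen after seeing the data) and 1 to 4 without 1 library.

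Within each comparison, changes of sign concerned genes that its reported fit did not call. Igfbp5, among them, was called in Sp3-/- against WT with DESeq2 and with the first title number as a block. In Sp3-/- against WT, the log2 fold change turned to 1.64 (Igf2), 0.43 (Igfbp3) and 0.11 (Igfbp5) with the suffix as a covariate, to 1.66, 0.85 and 0.054 in libraries without a suffix, and to 0.37 (Igfbp2) with the first title number as a block. Leaving out 1 library gave -1.51 to 0.37 for Igfbp2 and -0.36 to 0.057 for Igfbp3. In Sp3-/- against Sp3+/-, it turned to 2.06 (Igf2), 0.059 (Igfbp3) and 0.44 (Igfbp5) with the suffix, to 2.01 (Igf2) and 0.49 (Igfbp5) in libraries without one, and to 0.42 (Igfbp2) without the Sp3-carrying libraries that lack one, and leaving out 1 library gave -1.09 to 0.43 for Igfbp2. In Sp3+/- against WT, where values were near 0, it turned for Igf1 to 0.036 with the block, 0.22 with the suffix and 0.09 without the Sp3-carrying libraries that lack one. It turned for Igf2 to 0.083 with limma-voom and 0.094 with its consensus correlation, for Igf1r to 0.07, Igfbp4 to -1.54 and Igfbp6 to -0.016 in libraries without a suffix, for Igfbp2 to 0.093 and Igfbp4 to -0.01 with the block, and for Igfbp5 to 0.04 without the Sp3-carrying libraries that lack a suffix. Leaving out 1 library gave ranges of -0.24 to 0.21 (Igf1), -0.59 to 0.68 (Igf2), -0.10 to 0.013 (Igf1r), -0.40 to 0.02 (Igf2r), -0.96 to 0.47 (Igfbp2), -0.028 to 0.38 (Igfbp3), -0.069 to 0.68 (Igfbp4), -0.40 to 0.29 (Igfbp5) and -0.12 to 0.01 (Igfbp7). The causes were not tested.

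With 3 Sp3-/- libraries and a suffix that none of them carries, a genotype effect and an effect of whatever the suffix marks are separated only by WT 468-4 and Sp3+/- 697-4. No paired analysis was possible by replicate number, because these numbers follow accession order, and the only block fitted was the leading title number, whose meaning is not given. WT 468-4, the 1 library of its number in the comparison with WT, carries no weight in that fit. The other WT libraries all carry a suffix and no Sp3-/- library does, so that fit does not separate genotype from suffix.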
